A study of Mus musculus with 16 samples.

Results

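The genes studied here encode the nuclear subunits of the 5 respiratory chain complexes of the mouse. They were chosen by symbol alone, as the protein-coding genes whose symbol starts with Nduf, Uqcr, Cox4, Cox5, Cox6, Cox7, Cox8 or Atp5, together with Sdha, Sdhb, Sdhc, Sdhd and Cyc1. The rule found 99 of the 55414 genes in the counts, namely 38 of complex I, 8 complex I assembly factors (Ndufaf1 to Ndufaf8), 4 of complex II, 9 of complex III, 21 of complex IV and 19 of complex V. Ndufa4 and Ndufa4l2, which are named for complex I but whose products belong with complex IV, were counted with complex IV. Of the 99 genes, 95 had enough counts to be tested. The other 4 were Ndufb11b and a second Atp5po identifier (ENSMUSG00000116933), which had 0 counts over the 16 libraries, and Cox7b2 and Cox8c, which had 1 count each. A further 18 genes have such symbols but are annotated as pseudogenes or other types, and they were left out.

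The counts come from RNA-Seq of chondrocyte-enriched cells, which were obtained from the epiphyses of newborn mice aged 3 to 4 days. The Notch2 mutant cells came from mice heterozygous for the Notch2tm1.1Ecan allele, in which a stop codon removes the PEST domain of NOTCH2 and so stabilizes its active intracellular part. The Wild type cells came from littermates, both genotypes were on a C57BL/6 background, and male and female pups were pooled. Cells of each genotype were given Vehicle or, at a dose of 50 ng/ml, TNF alpha (TNFα), and RNA was taken after 6 h from 4 samples in each of the 4 groups. The labels mention the removal of serum for the TNFα groups only, while the study's text mentions it for both treatments, so that TNFα and the removal of serum cannot be told apart if the labels are right. The labels call the 4 libraries of a group biological replicates without saying whether they were separate cultures or litters, and the p values measure the spread between these libraries.

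The respiratory chain carries electrons from NADH through complex I, or from succinate through complex II, to complex III and then by way of cytochrome c to complex IV, which reduces oxygen. Complexes I, III and IV pump protons across the inner mitochondrial membrane, and complex V, the ATP synthase, uses the proton gradient to make ATP. Each complex except complex II combines subunits encoded in the nucleus with a few encoded in mitochondrial DNA, and several complex IV subunits exist in alternative forms that differ between tissues or with oxygen supply. Chondrocytes live in poorly vascularized cartilage and depend largely on glycolysis, but they keep a working respiratory chain.

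Total counts on genes ranged from 3439726 in replicate 4 of Notch2 mutant cells with TNFα to 44237300 in replicate 4 of Notch2 mutant cells with vehicle, with a median of 17062419. Levels are given in CPM (counts per 1e6 counts), scaled by TMM. A gene-level count does not show the point mutation, so the genotype labels could not be checked on the allele itself. On a principal component analysis, the first component (84.1% of the variance) separated the treatments, and the second (6.4%) separated the genotypes. Wild-type vehicle replicate 4 stood apart: its first component was -11.5, against -41.9 to -39.8 in the other vehicle libraries, and wild-type TNFα replicate 4 was at 28.4, against 37 to 39.8 in the other TNFα libraries. In wild-type vehicle replicate 4, Icam1, an adhesion molecule gene that TNFα induces and that was picked after its values were seen, was at 439 CPM against 34.4 to 40.4 in the other 3 libraries of its group and 2312 to 2828 with TNFα, and Sod2, another such gene, was at 72.1 against 47.1 to 53 CPM. The part of this in the results was not tested beyond the fits without that library. Chondrocyte markers were abundant in every library (Col2a1, at least 13473 CPM), but the summed level of 14 such markers fell from 51632 to 55424 CPM in wild-type vehicle libraries to 37333 to 44310 CPM with TNFα, and from 32228 to 37400 CPM to 20332 to 23120 CPM in Notch2 mutant cells. A smaller level of a gene in these bulk libraries can mean fewer cells of a type or less RNA per cell, which cannot be told apart.

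In wild-type cells with vehicle, the most abundant respiratory chain mRNA per kilobase of transcript was that of Atp5f1b, the catalytic beta subunit of the ATP synthase, at 405 CPM per kb. It was followed by Cox6a1 at 256, Cox4i1 at 221 and Atp5f1a, the alpha subunit, at 220 CPM per kb. The general forms of the complex IV subunits were the main ones in these cells. Cox8b and Cox7a1, which are forms of heart and skeletal muscle, were listed at mean levels of 0.25 and 0.115 CPM in wild-type vehicle libraries. The next question was how these mRNAs responded to TNFα.

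In wild-type cells, TNFα lowered the mRNA of many respiratory chain genes by a small amount and raised that of very few. Of the 95 genes tested, 45 fell and 4 rose in edgeR's quasi-likelihood test at an adjusted p under 0.05 (Benjamini-Hochberg over all genes tested), and 46 did not pass the test. Among all 19338 genes tested, 20.9% fell and 23.3% rose. Since the respiratory chain genes are more abundant than most genes, they were also set beside the 9577 genes with a mean of at least 10 CPM, of which 34.4% fell and 29% rose. Of the 85 respiratory chain genes at that level, 43 fell and 4 rose. The median log2 fold change of the 95 genes was -0.15, compared with 0.039 for all genes and -0.028 for genes with at least 10 CPM. The log2 fold change was below 0 in 72 of the 95. Only 1 of the 95, Cox4i2, passed the test with a change by a factor of 2 or more, against 11.8% of all genes. The groups did not overlap for 34 genes that were lower and 4 that were higher with TNFα, against 20.2% and 21.5% of all genes. When libraries were scaled by their totals alone, 30 genes fell and 8 rose, with a median of -0.09. The shares of all genes were not counted under that scaling, so these 2 counts have no background beside them.

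In complex I, 15 of the 37 genes tested (40.5%) fell in wild-type cells and 2 rose. For this and the complexes that follow, 20.9% of all genes fell, and 34.4% of those with at least 10 CPM. Ndufs1, which encodes the largest subunit of the complex and carries iron-sulfur clusters on the path of the electrons, had 83.3, 89.3, 87.1 and 79.9 CPM with vehicle and 58.9, 59.8, 63.1 and 65.2 CPM with TNFα. Every TNFα library lay below every vehicle library, and the log2 fold change was -0.45 (SE 0.053, adjusted p = 3.81e-07). The more abundant Eef1b2, whose exons overlap Ndufs1 on the opposite strand for up to 297 bp, had log2 fold changes of 0.12 and 0.05 in wild-type and mutant cells. The part of this overlap was not tested. Of the other core subunits of the electron path, Ndufs3 fell by 0.25, Ndufs8 by 0.26 and Ndufv2 by 0.27 on the log2 scale, while Ndufv1, which binds NADH and flavin, was at 0.054 on that scale (adjusted p = 0.477) and Ndufs7 at -0.067 (adjusted p = 0.472).

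The accessory subunits of complex I moved unevenly. Ndufa12 fell from a mean of 44 to 32.9 CPM and Ndufa5 from 31 to 23.2 CPM, each with a log2 fold change of -0.41. Ndufs5 fell by 0.38 and Ndufb7 by 0.31 on the log2 scale. By contrast, Ndufa6 rose from 37.9 to 43.4 CPM (log2 fold change 0.21, SE 0.07, adjusted p = 0.0198), and that call was lost in 3 of the 8 fits that left out a library. Ndufa3 (log2 fold change -0.0078, adjusted p = 0.945) and Ndufs6 (-0.13, adjusted p = 0.118) did not pass the test. Of the 8 assembly factors, 3 fell (37.5%, near the 34.4% of genes with at least 10 CPM) and none rose. Ndufaf4 fell from 17.6, 18.3, 18.8 and 16.8 CPM with vehicle to 11.7, 11.8, 12.1 and 14.8 CPM with TNFα. Its groups did not overlap, and its log2 fold change was -0.49 (SE 0.094, adjusted p = 0.000181). Ndufaf7, a mitochondrial methyltransferase, fell by 0.45, and Ndufaf5 fell by 0.41 on the log2 scale.

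Complex II, which is also the succinate dehydrogenase of the tricarboxylic acid (TCA) cycle and has no subunit from mitochondrial DNA, was the complex in which every gene fell. Sdha, the flavoprotein subunit that oxidizes succinate, had 214, 217, 224 and 217 CPM with vehicle and 187, 182, 181 and 192 CPM with TNFα. The groups did not overlap although the change was small, with a log2 fold change of -0.23 (SE 0.046, adjusted p = 0.000343). Ccdc127, whose exons overlap Sdha on the opposite strand for up to 80 bp, had log2 fold changes of -0.27 and -0.42 in wild-type and mutant cells. The part of this overlap was not tested. Sdhb, the iron-sulfur subunit, fell by 0.26, and the membrane anchors Sdhc and Sdhd fell by 0.24 and 0.18 on the log2 scale.

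In complex III, 6 of 9 genes fell and none rose. Cyc1, cytochrome c1, had 73.6, 72, 70.3 and 61.6 CPM with vehicle and 50.1, 52.8, 57.8 and 60.3 CPM with TNFα. The highest TNFα library and the lowest vehicle library were both replicate 4 and lay close together, but the groups did not overlap (log2 fold change -0.32, SE 0.063, adjusted p = 0.000257). Uqcrb, a subunit near the ubiquinone site, fell from a mean of 54.9 to 41.5 CPM. The core protein gene Uqcrc2 fell by 0.14 on the log2 scale (adjusted p = 0.0295), a call that was lost in 4 of 8 fits without 1 library. Uqcrc1 (log2 fold change -0.11, adjusted p = 0.11) and Uqcrfs1, the Rieske iron-sulfur protein (0.07, adjusted p = 0.403), did not pass the test.

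In complex V, 10 of the 18 genes tested fell and none rose. Atp5f1b had 793, 803, 802 and 721 CPM with vehicle and 561, 548, 576 and 596 CPM with TNFα. The mean fell from 780 ± 39.5 to 570 ± 20.8 CPM (SD, n = 4), without overlap, and the log2 fold change was -0.44 (SE 0.042, adjusted p = 1.52e-08). Atp5f1a, its partner in the catalytic head, fell less, by 0.27 on the log2 scale (adjusted p = 1.71e-05). Atp5f1d and Atp5f1e of the central stalk and Atp5if1, the inhibitor that blocks ATP hydrolysis, did not pass the test in either genotype. For Atp5if1, the log2 fold change in wild-type cells was 0.017 (adjusted p = 0.851).

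**Figure D1:**
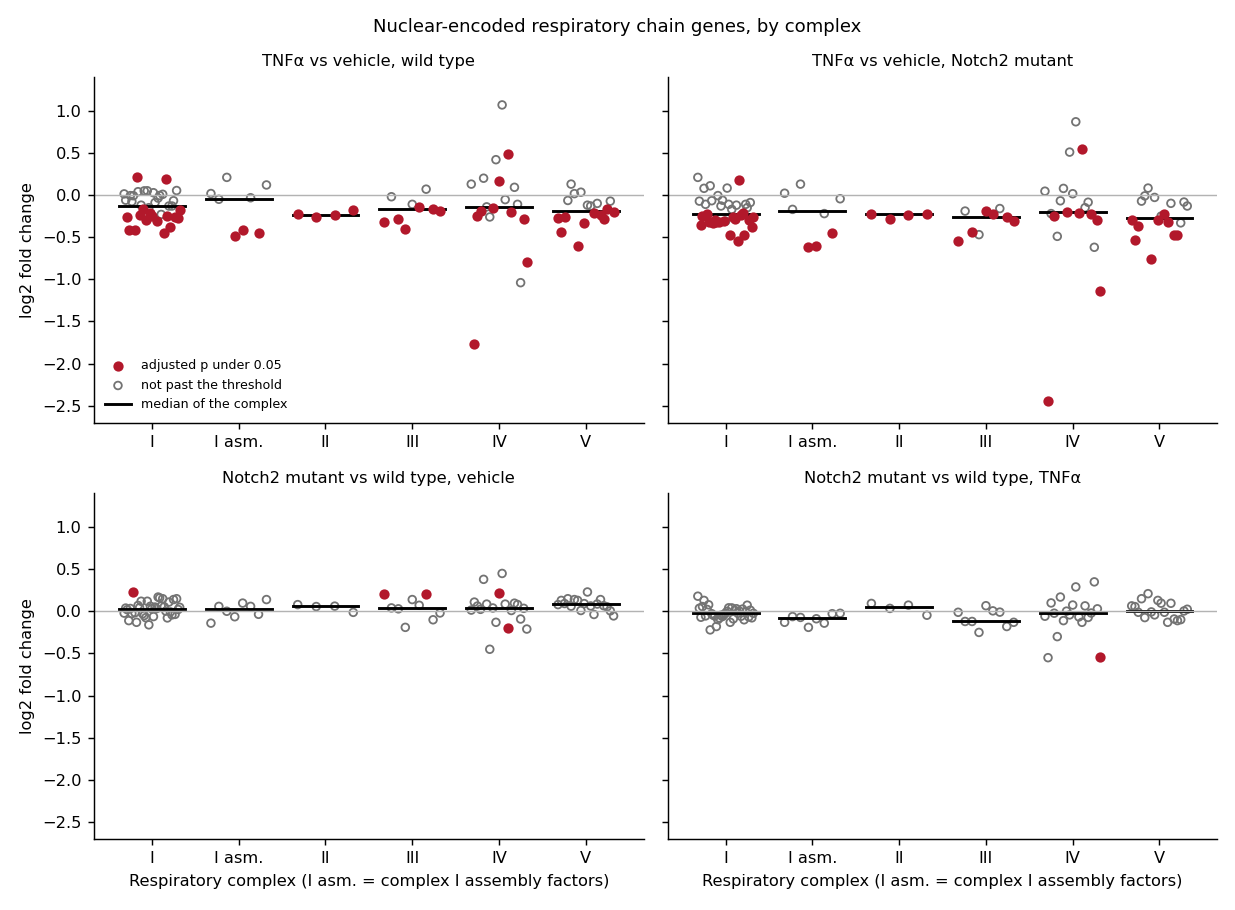
Each point is the log2 fold change (vertical axis) of 1 of the 95 genes tested, by complex, with TNFα against vehicle in each genotype (upper panels) and between genotypes with each treatment (lower panels), where filled points passed the test at an adjusted p under 0.05 and lines are medians. With TNFα most points lie a little below 0 in every complex, and the lowest filled points are Cox4i2, Ndufa4l2 and Atp5mc1, while between genotypes nearly all points lie close to 0.

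The c subunits of the ATP synthase form its membrane ring, and 3 genes, Atp5mc1, Atp5mc2 and Atp5mc3, encode the same mature protein behind different mitochondrial targeting peptides. These genes responded unequally. Atp5mc1 (ENSMUSG00000006057, chr11:95959678-95966757 on GRCm39) had 83.8, 88.5, 83.3 and 70.3 CPM in wild-type vehicle libraries and 52.3, 48.8, 57.5 and 52.9 CPM with TNFα. All TNFα libraries lay well below all vehicle libraries, with a log2 fold change of -0.61 (SE 0.064, adjusted p = 6.17e-08). Atp5mc3 fell by 0.33 on the log2 scale (adjusted p = 2.56e-05), from a mean of 143 to 114 CPM. Atp5mc2 went from 84 to 85.6 CPM (log2 fold change 0.034, adjusted p = 0.673). In Notch2 mutant cells, Atp5mc1 had 95.5, 87.5, 87.8 and 84.9 CPM with vehicle and 55.9, 57.5, 53.4 and 35.6 CPM with TNFα. The lowest of these was the shallowest library, and without it the log2 fold change was -0.67, compared with -0.76 over all 8 libraries (SE 0.096, adjusted p = 3.09e-06). In the mutant cells, Atp5mc3 fell by 0.30 (adjusted p = 0.000674), and the log2 fold change of Atp5mc2 was -0.028 (adjusted p = 0.768).

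Among the genes that passed the test, complex IV held the largest falls and the largest rise. Of its 19 genes tested, 7 fell (36.8%, near the 34.4% of genes with at least 10 CPM) and 2 rose in wild-type cells. Cox4i2 (ENSMUSG00000009876, chr2:152595625-152606959 on GRCm39) encodes the alternative form of subunit 4, known from lung and from oxygen-sensing vascular cells. It had 13.2, 14.5, 13 and 12.4 CPM with vehicle and 3.47, 3.46, 2.91 and 5.49 CPM with TNFα. The highest TNFα library had less than the lowest vehicle library by a wide margin, and the log2 fold change was -1.77 (SE 0.15, adjusted p = 3.89e-09). The counts behind these levels were at least 190 with vehicle and as low as 44 with TNFα. Its common counterpart Cox4i1 had 173, 184, 179 and 158 CPM with vehicle and 189, 177, 203 and 185 CPM with TNFα, with overlap (log2 fold change 0.13, adjusted p = 0.0538). Per kilobase of transcript, Cox4i2 made up 7.33% ± 0.254 of the Cox4i1 and Cox4i2 mRNA with vehicle and 2.06% ± 0.64 with TNFα (SD, n = 4).

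Ndufa4l2 (ENSMUSG00000040280, chr10:127350818-127353038 on GRCm39), a paralog of Ndufa4 known as a hypoxia-induced gene, showed the second largest fall. It had 64.6, 70.4, 67.4 and 52.1 CPM with vehicle and 33.8, 33.6, 39.4 and 38.6 CPM with TNFα. The groups were clearly apart even with the low replicate 4 of the vehicle group, and the log2 fold change was -0.80 (SE 0.081, adjusted p = 4.97e-07). Ndufa4 itself, a subunit of complex IV, fell by 0.29 on the log2 scale (adjusted p = 0.000302). Per kilobase, the share of Ndufa4l2 in the pair went from 30.3% ± 1.88 with vehicle to 23.4% ± 1.54 with TNFα (SD, n = 4). The exons of Ndufa4l2 overlap those of Shmt2, a serine hydroxymethyltransferase gene on the opposite strand, for up to 727 bp. Shmt2 is the more abundant of the pair and fell from a mean of 254 to 192 CPM (log2 fold change -0.39, adjusted p = 5.97e-07), and since the strand setting of the counting is not given in the sources used here, the part of the overlap was not tested.

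Smooth muscle markers fell with TNFα too, as did 12 of 14 chondrocyte markers in each genotype. Of the 8 smooth muscle markers, 7 fell in each genotype and Rgs5, a pericyte gene, rose. Among all genes, 20.9% fell in wild-type and 21.9% in mutant cells. The summed level of the smooth muscle markers was 1797 to 2076 CPM in wild-type vehicle libraries and 996 to 1214 CPM with TNFα. In Notch2 mutant cells it was 3580 to 4193 CPM with vehicle and 1879 to 2172 CPM with TNFα. Acta2 was abundant in every library (at least 683 CPM), whereas the more specific Myh11 had means of 4.26 and 1.51 CPM in wild-type vehicle and TNFα libraries, and Myocd was at 0 in at least 1 library. In Notch2 mutant vehicle libraries the summed smooth muscle level was higher than in wild-type ones without overlap, while Cox4i2 was at 14.3 CPM against 13.3 (adjusted p = 0.533) and Ndufa4l2 at 54.6 against 63.6 (adjusted p = 0.0923). The part of smooth muscle cells in the fall with TNFα was not tested.

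The largest rise was that of Cox7a2l (ENSMUSG00000024248, chr17:83765970-83824759 on GRCm39), which is related to the subunits 7a and takes part in joining complex III to complex IV in supercomplexes. It had 89.8, 89.5, 92 and 95.1 CPM in wild-type vehicle libraries and 133, 124, 136 and 119 CPM with TNFα. All TNFα libraries were higher than all vehicle libraries, with a log2 fold change of 0.49 (SE 0.054, adjusted p = 1.31e-07). In Notch2 mutant cells it had 84.6, 74.1, 80.7 and 79.2 CPM with vehicle and 131, 121, 108 and 103 CPM with TNFα, again without overlap (log2 fold change 0.55, SE 0.071, adjusted p = 3.13e-07). Eml4, whose exons overlap Cox7a2l on the opposite strand for up to 89 bp, had log2 fold changes of -0.04 and 0.11 (adjusted p = 0.672 and 0.217 in wild-type and mutant cells). C57BL/6 mice are known to carry a shortened form of the Cox7a2l protein, which counts per gene do not show. Cox6c rose slightly in wild-type cells, from 57.7 to 64.7 CPM, with overlap (log2 fold change 0.17, adjusted p = 0.0223), and this call was lost in 4 of 8 fits without 1 library.

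**Figure D2:**
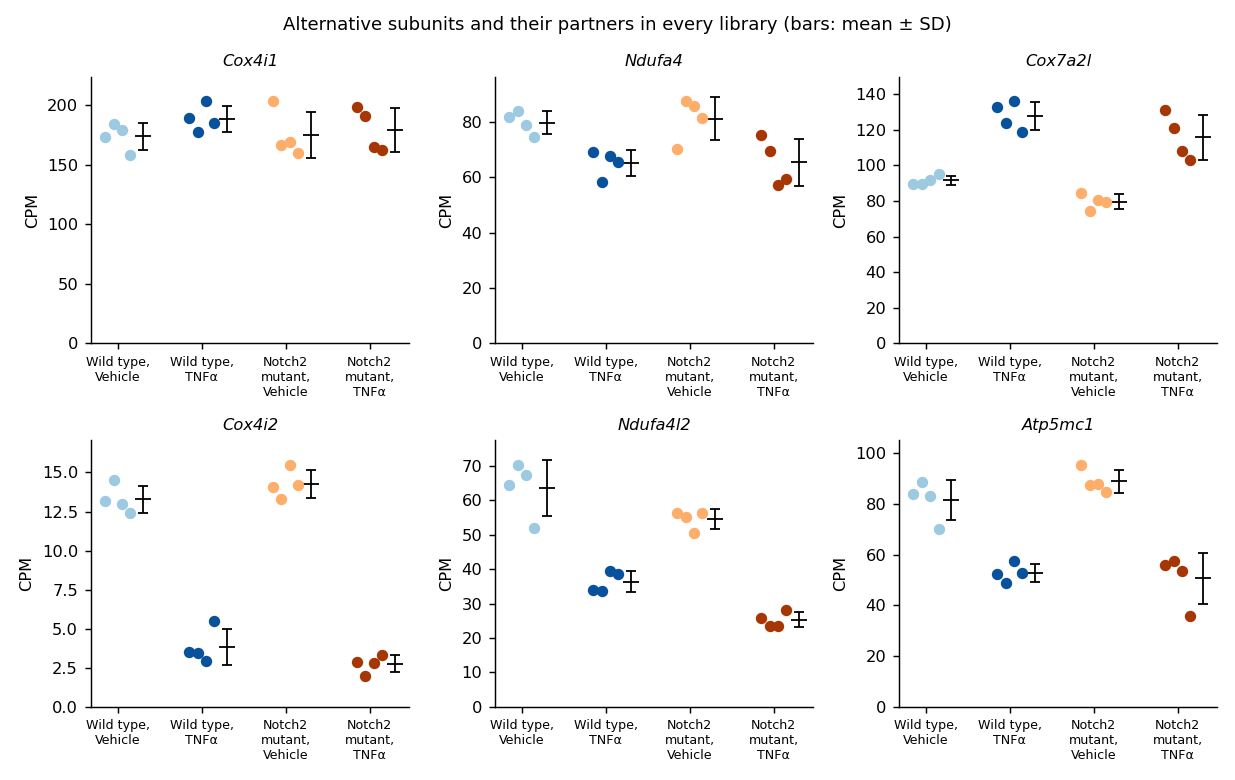
The levels of Cox4i1, Cox4i2, Ndufa4, Ndufa4l2, Cox7a2l and Atp5mc1 are plotted in CPM for each of the 16 libraries (points), with the mean and SD of each group of 4 (bars). Cox4i2, Ndufa4l2 and Atp5mc1 were lower and Cox7a2l was higher in every TNFα library than in every vehicle library of the same genotype, while the Cox4i1 groups overlap.

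The other complex IV genes moved by less. In wild-type cells, Cox5b and Cox7b fell by 0.19 and 0.20 on the log2 scale, and Cox5a, which with Cox5b lies in the matrix, fell by 0.25. Cox6a1 (log2 fold change -0.14, adjusted p = 0.097), Cox7a2 (-0.054, adjusted p = 0.514) and Cox8a (-0.11, adjusted p = 0.0752) did not pass the test. The muscle form Cox6a2 (-0.26, adjusted p = 0.15) and the testis form Cox6b2 (0.42, adjusted p = 0.137) were low, and neither passed the test. Skeletal muscle markers, listed because muscle forms of complex IV could come with muscle cells, summed to 31.4 to 39.3 CPM in wild-type vehicle and 13.3 to 25.8 CPM in wild-type TNFα libraries. Of these markers 4 of 14 fell, against 20.9% of all genes. Cox6b1, the common form of subunit 6b, fell by 0.15 (adjusted p = 0.0466), a call lost in 5 of 8 fits without 1 library.

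The promoters of the genes with the largest fall and the largest rise in both genotypes are printed so that they can be compared, for those that have an entry in the RefSeq table (GRCm38.p6). Cox4i2 and Ndufa4l2 have none. The 250 bases before the start of Atp5mc1 (named Atp5g1 there) are at chr11:96075632-96075881 and those of Cox7a2l at chr17:83514334-83514583, both on the minus strand. Capitals mark the letters CCAAT, the box bound by NF-Y, and ACGTG, the core letters bound by hypoxia-inducible and E-box factors, on either strand.
Atp5mc1: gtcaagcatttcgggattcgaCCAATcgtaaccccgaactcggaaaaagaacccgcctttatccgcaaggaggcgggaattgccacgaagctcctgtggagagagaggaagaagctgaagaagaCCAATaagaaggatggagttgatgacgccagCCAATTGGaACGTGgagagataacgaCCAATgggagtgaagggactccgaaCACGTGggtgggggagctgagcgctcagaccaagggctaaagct
Cox7a2l: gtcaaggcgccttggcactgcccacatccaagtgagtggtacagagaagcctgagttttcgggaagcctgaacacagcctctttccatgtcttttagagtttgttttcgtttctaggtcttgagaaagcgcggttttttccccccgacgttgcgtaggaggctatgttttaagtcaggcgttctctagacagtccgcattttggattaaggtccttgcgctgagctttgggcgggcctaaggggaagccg
The Atp5mc1 promoter held several CCAAT and ACGTG matches, and the Cox7a2l promoter held no match to any motif searched.

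Motifs were searched on both strands in the 300 bases around the start (250 before, 50 after) of the 76 respiratory chain genes with an entry, and of all 17491 protein-coding genes in the table. CGCNTGCGC, the letters of the nuclear respiratory factor 1 (NRF1) site, stood in 28.9% of the respiratory chain promoters and in 9.63% of all promoters. The ETS letters CCGGAAG, bound among others by GABP, stood in 23.7% and 12.9%, and the YY1 letters AAGATGGCG in 10.5% and 2.14%. ACGTG was found in 25% of the respiratory chain promoters and 23.2% of all, CCAAT in 43.4% and 42.3%, and the NF-κB letters GGNNTTTCC in 5.26% and 6.62%. A promoter was counted once for a motif however many matches it held, and matches on the 2 strands or of 2 motifs could overlap, as CCAAT and its reverse do in the Atp5mc1 promoter. Of the 30 promoters of genes that fell in both genotypes, 13 held the NRF1 letters, 9 the ETS letters and 0 the YY1 letters. Of the 30 promoters of genes that were called in neither genotype, 4 held the NRF1 letters, 7 the ETS letters and 4 the YY1 letters. With 1 more G before the letters, the NRF1 site stood in 25% and 7.17% of promoters, in 10 of the 30 that fell and in 4 of the 30 called in neither. These are matches of letters, and no binding was measured.

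In Notch2 mutant cells, TNFα again lowered many respiratory chain genes. Of the 95 genes, 48 fell and 2 rose (edgeR, adjusted p under 0.05), against 21.9% and 22.6% of all genes. Of the 85 with a mean of at least 10 CPM, 46 fell and 2 rose, against 34.8% and 27.6% of all genes at that level. The median log2 fold change was -0.22, compared with 0.026 for all genes and -0.046 for genes with at least 10 CPM. The log2 fold change was below 0 in 81 of the 95. Cox4i2 and Ndufa4l2 were the 2 genes that passed with a change by a factor of 2 or more, against 13.9% of all genes. The groups did not overlap for 39 genes that were lower and 2 that were higher, against 20.4% and 19.8% of all genes. By complex, the genes that fell were 19 of 37 in complex I, 3 of 8 assembly factors, 4 of 4 in complex II, 6 of 9 in complex III, 7 of 19 in complex IV and 9 of 18 in complex V. The assembly factors and complex IV were thus near the 34.8% of genes with at least 10 CPM that fell.

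Cox4i2 had 14.1, 13.3, 15.5 and 14.2 CPM in mutant vehicle libraries and 2.85, 1.99, 2.81 and 3.31 CPM with TNFα, where the counts were 12 to 48 per library. The groups were far apart, with a log2 fold change of -2.45 (SE 0.14, adjusted p = 4.62e-14). Ndufa4l2 had 56.4, 55.3, 50.4 and 56.3 CPM with vehicle and 25.9, 23.6, 23.5 and 28.1 CPM with TNFα. No TNFα library came near a vehicle library, and the log2 fold change was -1.14 (SE 0.077, adjusted p = 1.17e-12). Shmt2, which overlaps it, fell by 0.21 (adjusted p = 0.00998) in these cells. Cyc1 had 85.7, 74.3, 76.9 and 82.4 CPM with vehicle and 61.2, 55.6, 52.6 and 45 CPM with TNFα, without overlap (log2 fold change -0.55, SE 0.076, adjusted p = 1.03e-06). Atp5f1b fell by 0.53 (adjusted p = 2.26e-08), from 899, 822, 846 and 838 CPM to 606, 621, 586 and 534 CPM. Ndufs1 fell by 0.54 (adjusted p = 4.31e-07), from a mean of 87.7 to 59.7 CPM. Among the assembly factors, Ndufaf4 fell by 0.62 and Ndufaf5, which hydroxylates a core subunit, by 0.60 on the log2 scale. The 4 genes of complex II fell by 0.22 to 0.29, and Sdha had 229, 223, 232 and 235 CPM with vehicle and 200, 201, 200 and 182 CPM with TNFα.

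Set side by side, 39 genes fell in both genotypes, 2 rose in both, and none was called in opposite directions. Cox7a2l was among those that rose in both. A further 6 genes passed the test for a fall in wild-type cells alone (Atp5pd, Atp5po, Cox5a, Cox7b, Ndufb4 and Uqcrb), and 9 in mutant cells alone (Atp5mf, Cox7a2, Cox8a, Ndufa3, Ndufa9, Ndufb9, Ndufc1, Ndufs4 and Uqcrc1). Of the latter, Cox7a2 lost its call in 6, Cox8a in 4 and Uqcrc1 in 3 of the 8 fits without 1 library. Ndufa6 and Cox6c passed the test for a rise in wild-type cells alone. Passing in 1 genotype alone does not show a difference between them. Uqcrb, for instance, had a log2 fold change of -0.40 in wild-type cells and of -0.47 in mutant cells, where the SE was 0.27 (adjusted p = 0.211). Another 37 genes passed in neither genotype, among them Ndufv1, Ndufs7, Uqcrfs1, Cox4i1, Cox6a1 and Atp5mc2.

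The 2 comparisons share no libraries. Over the 85 respiratory chain genes with a mean of at least 10 CPM, the log2 fold changes with TNFα in wild-type and mutant cells had a Pearson correlation of 0.91 and a Spearman correlation of 0.89 across genes, which are not independent of each other. Over all 9577 genes at that level the values were 0.96 and 0.95. The log2 fold change was lower in mutant than in wild-type cells for 67 (78.8%) of the 85 genes and for 55% of all genes at that level. The test of these differences gene by gene is the interaction given further on.

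**Figure D3:**
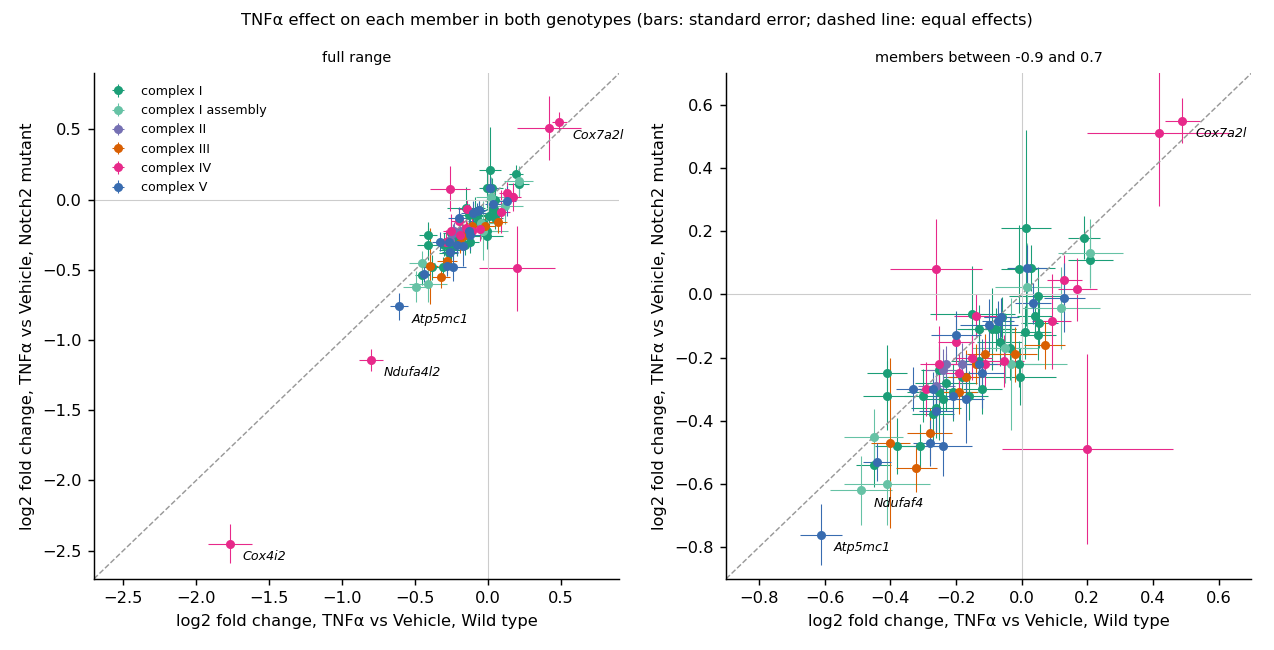
The log2 fold change with TNFα in Notch2 mutant cells (vertical axis) is plotted against that in wild-type cells for every gene tested except Cox7a1 and Cox8b, whose SE was above 0.5, over the full range (left) and enlarged (right), with the SE as bars and a dashed line where both are equal. Most genes lie below 0 on both axes, and Cox4i2, Ndufa4l2, Atp5mc1 and Ndufaf4 lie below the line.

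Summed over the genes of a complex, the levels give a weighted picture that a few abundant genes dominate, and they are a description without a test. In wild-type cells the sum for complex V went from 2576 ± 92 CPM with vehicle to 2122 ± 74.3 CPM with TNFα (SD, n = 4), a change of -17.6%. Complex II changed by -15%, complex III by -11.5%, complex I by -7.68% and complex IV by -4.65%. With libraries scaled by their totals alone, complex I changed by -3.4% and complex IV by -0.215% in wild-type cells. The vehicle and TNFα libraries did not overlap for complexes II, III and V, but they did for complex I (1603 to 1739 and 1498 to 1634 CPM) and complex IV (1091 to 1205 and 1061 to 1174 CPM). In Notch2 mutant cells complex V went from 2739 ± 70.4 to 2157 ± 89.3 CPM (-21.2%), and the changes were -18.9% for complex III, -15.3% for complex II, -11.4% for complex I and -8.03% for complex IV. Only complex IV overlapped between treatments in mutant cells. All 99 genes together made up 6648 ± 249 CPM (SD, n = 4) in wild-type vehicle libraries and 5856 ± 204 CPM with TNFα, and 6897 ± 164 and 5806 ± 287 CPM in mutant cells.

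**Figure D4:**
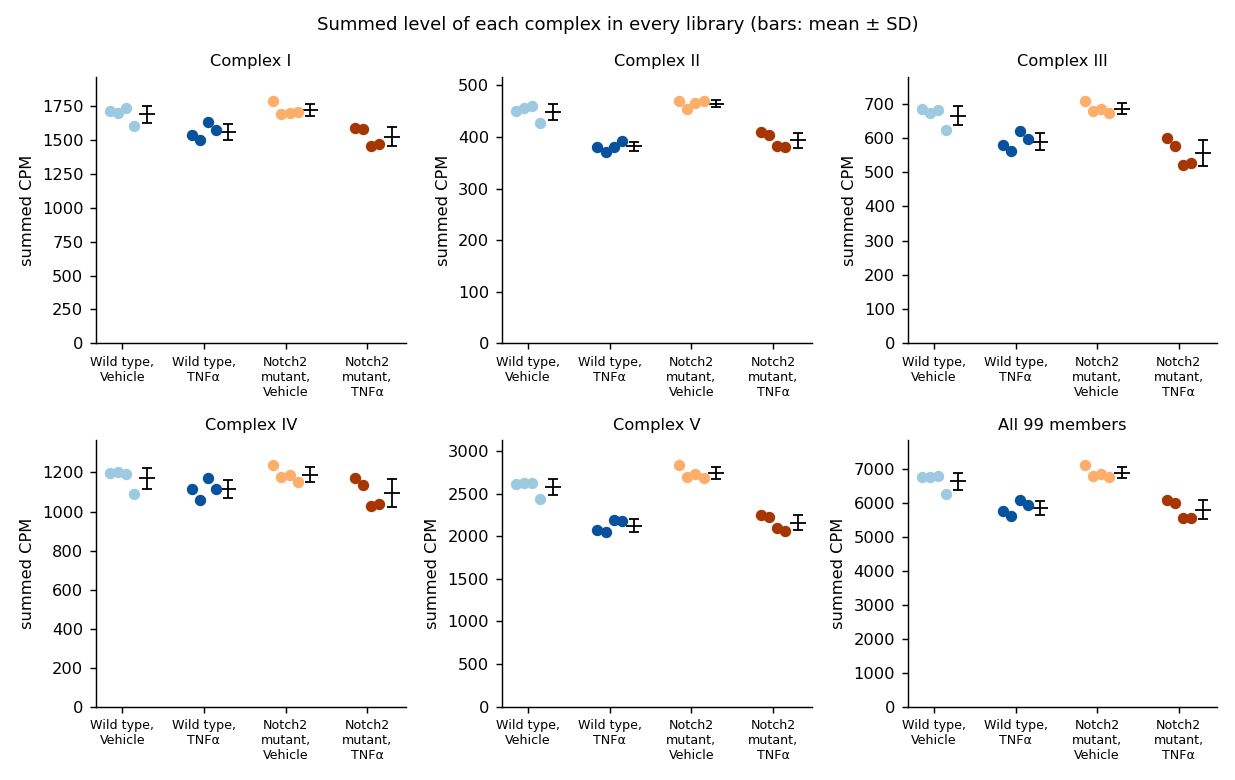
The summed CPM of the genes of each complex is plotted for each of the 16 libraries, with the mean and SD of each group of 4. The TNFα libraries lie below the vehicle libraries in complexes II, III and V in both genotypes, while those of complex IV overlap.

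The comparison of genotypes asks whether the Notch2 mutation changed the respiratory chain genes by itself. With vehicle, 4 of the 95 genes were higher and 1 was lower in Notch2 mutant than in wild-type cells (edgeR, adjusted p under 0.05). Among all 19432 genes tested, 6.19% were higher and 4.35% lower. Of the 85 with a mean of at least 10 CPM, 4 were higher and 1 was lower, against 9.21% and 6.91% of all genes at that level. Neither share was thus above the background. Cox6c, a small subunit of complex IV, had 65.9, 67.9, 69 and 65.1 CPM in mutant and 59.8, 57, 56 and 57.7 CPM in wild-type libraries, without overlap (log2 fold change 0.22, SE 0.054, adjusted p = 0.00768). Ndufa3 (0.23, adjusted p = 0.0328), Uqcrfs1 (0.21, adjusted p = 0.0222) and Cyc1 (0.21, adjusted p = 0.0339) were also higher, and Cox7a2l was lower (-0.20, adjusted p = 0.024). Their groups did not overlap either, as was the case for 6 genes that were higher and 3 that were lower in all (8.63% and 7.57% of all genes). Without wild-type vehicle replicate 4, 1 gene was higher and 3 were lower. Leaving out 1 library ended the calls of Ndufa3, Uqcrfs1 and Cyc1 in 5 of 8 fits and of Cox7a2l in 3, but never that of Cox6c. For 89 of the 95 genes the 95% interval of the log2 difference lay within 0.5 of 0, and for 60 within 0.25.

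With TNFα, 1 respiratory chain gene differed between the genotypes, against 4.31% of 19227 genes that were lower and 5.63% that were higher in mutant cells. Among all genes with a mean of at least 10 CPM, 6.37% were lower and 8.26% higher. Ndufa4l2 had 25.9, 23.6, 23.5 and 28.1 CPM in mutant and 33.8, 33.6, 39.4 and 38.6 CPM in wild-type TNFα libraries. The groups were apart, with a log2 difference of -0.54 (SE 0.084, adjusted p = 3.59e-05). No fit without 1 library lost this call. Cox4i2 differed by a similar amount, -0.55, but with an SE of 0.22 it did not pass the test (adjusted p = 0.135). With Ndufa4l2 and Cox4i2 included, 9 of the 95 genes had an unadjusted p under 0.05, against 21.4% of all genes. The groups did not overlap for 1 gene that was higher and 2 that were lower in mutant cells, against 6.84% and 7.97% of all genes. For 88 of the 95 genes the interval lay within 0.5 of 0 on the log2 scale, and for 48 within 0.25.

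In a fit of all 16 libraries, the genotype by TNFα interaction asks whether TNFα acted differently in mutant cells. No respiratory chain gene passed (0 of 95 with edgeR's quasi-likelihood test and 0 with DESeq2), against 0.474% of 21321 genes, and 5 had an unadjusted p under 0.05, against 8.71% of all genes. These 5, chosen after their values were seen, were Cox4i2 (-0.68, SE 0.22, adjusted p = 0.223), Ndufa4l2 (-0.33, adjusted p = 0.263), Uqcrfs1 (-0.23), Cyc1 (-0.23) and Ndufa3 (-0.21). Uqcrfs1, Cyc1 and Ndufa3 are also genes that were higher in mutant vehicle libraries, and both comparisons use those libraries. The interval of the interaction lay within 0.5 of 0 for 79 of the 95 genes, but within 0.25 for only 21. Differences as small as most of the changes with TNFα could thus not be seen for many genes.

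The subunits encoded in mitochondrial DNA are the other part of these complexes. Of these, mt-Co2, mt-Co3 and mt-Atp6 were listed at less than 5 CPM in every library while mt-Co1 had means of 1693 and 2585 CPM in wild-type vehicle and TNFα libraries, and they are left out of the counts that follow. Of the other 9 tested, 6 rose and none fell in wild-type cells (median of the 9 on the log2 scale 0.41), against 23.3% and 20.9% of all genes. In mutant cells the median was 0.38, and 1 rose (mt-Nd4, 0.53), against 22.6% of all genes. The 9 still hold mt-Nd3 and mt-Nd4l, which had no more than 0.552 and 0.221 CPM in any library. With mt-Co2, mt-Co3 and mt-Atp6 included, 8 of 12 rose in wild-type cells (median 0.42), mt-Co2 (0.82) and mt-Co3 (0.85) among them. In mutant cells 1 of the 12 rose (median 0.33). The counts do not show that TNFα acted differently in the genotypes: no gene encoded in mitochondrial DNA passed the interaction test of edgeR (lowest adjusted p = 0.404). With the replicate number as a block, 2 of the 9 rose in wild-type and 5 in mutant cells. Between the genotypes, the median of the mitochondrial DNA genes tested was -0.32 with vehicle, where none passed, and -0.43 with TNFα. With TNFα, mt-Co2, left out above for its low level, was lower in mutant cells (-0.95, edgeR, adjusted p = 0.0105), against 4.31% of all genes that were lower. Its means were 1.58 and 3.49 CPM in mutant and wild-type TNFα libraries. No other gene encoded in mitochondrial DNA passed that test. The summed level of all these genes went from 4262 ± 460 to 6109 ± 765 CPM in wild-type and from 3385 ± 680 to 4470 ± 768 CPM in mutant cells (SD, n = 4), and the lowest sum, 2366 CPM, was that of Notch2 mutant vehicle replicate 1.

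The TCA cycle genes, which feed the chain with NADH and succinate, fell with it. Listed with them are Pdha1, Pdhb and Dlat of the pyruvate dehydrogenase, all of which fell in both genotypes. Of the 16 genes of the whole list, 12 fell and 1 rose in wild-type cells (median -0.28), against 20.9% and 23.3% of all genes and 34.4% and 29% of those with at least 10 CPM. In mutant cells 12 fell and none rose (median -0.29), against 21.9% and 22.6% of all genes and 34.8% and 27.6% of those with at least 10 CPM. Idh3a, a subunit of the NAD-dependent isocitrate dehydrogenase, had log2 fold changes of -0.61 and -0.80 in wild-type and mutant cells, and Mdh2, the mitochondrial malate dehydrogenase, of -0.44 and -0.49. Of 77 mitochondrial ribosomal protein genes tested, 28 fell and 8 rose in wild-type cells and 36 fell and 8 rose in mutant cells, with medians of -0.10 and -0.19. Among genes with at least 10 CPM, 34.4% fell and 29% rose in wild-type cells, and 34.8% and 27.6% in mutant cells. The falls of the ribosomal protein genes in wild-type cells were near that share. Cycs, the cytochrome c that links complexes III and IV, fell from 52.7 to 36.2 CPM in wild-type cells (log2 fold change -0.53) and from 57.7 to 35 CPM in mutant cells (-0.68). Of the 17 electron carrier and supply genes with Cycs among them, 5 rose and 4 fell in wild-type cells, against 23.3% and 20.9% of all genes. In mutant cells 5 rose and 6 fell, against 22.6% and 21.9%, and nothing is read from these counts.

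For the lists that follow, the shares of all genes that fell and rose were again 20.9% and 23.3% in wild-type and 21.9% and 22.6% in mutant cells, and nothing is read from a list whose shares are near these. The assembly genes outside the symbols of the rule had calls in both directions. Of 23 complex IV assembly and paralog genes, 5 rose and 2 fell in wild-type cells, and 3 rose and 3 fell in mutant cells. Of 18 for complexes II, III and V, 1 rose and 4 fell, and in mutant cells 1 rose and 6 fell. Of 11 for complex I, 3 rose and 5 fell in both genotypes. AA467197, a paralog of Ndufa4 known to be induced by inflammatory signals, rose from a mean of 0.925 to 5.16 CPM in wild-type cells (log2 fold change 2.44, adjusted p = 4.15e-08) and from 0.343 to 2.79 CPM in mutant cells (3.16, adjusted p = 1.15e-08), while Ndufa4l2 and Ndufa4 fell. It was lower in mutant than in wild-type cells with vehicle (-1.43, adjusted p = 0.0252) and with TNFα (-0.71, adjusted p = 0.0249), and both of these calls were lost in 4 of 8 fits without 1 library.

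Of 17 regulators of mitochondrial biogenesis, 2 were higher and 4 lower in wild-type cells and 2 higher and 1 lower in mutant cells, where the shares of all genes were 23.3% and 20.9%, and 22.6% and 21.9%. Ppargc1a, the coactivator PGC-1α, rose (0.77 and 0.64), and its relative Pprc1 fell (-0.65 and -0.59). Nrf1, the factor that binds the letters counted in the promoters, fell by 0.23 in wild-type cells (adjusted p = 0.0111) and was at -0.20 in mutant cells (adjusted p = 0.055). Esrra, an orphan nuclear receptor that works with PGC-1α, rose by 0.33 in wild-type cells (adjusted p = 0.000275) and was at 0.14 in mutant cells (adjusted p = 0.41). Gabpa, whose product binds the ETS letters, had log2 fold changes of -0.11 and -0.14, Ppargc1b of 0.12 and 0.032. Tfam, the mitochondrial transcription factor, had a log2 fold change of -0.0014 in wild-type and -0.093 in mutant cells. These last 3 genes did not pass the test in either genotype. Among inflammatory mitochondrial genes, of which 4 of 7 rose and 3 fell in both genotypes, Sod2, the mitochondrial superoxide dismutase, rose from 55.9 to 194 CPM in wild-type and from 48.5 to 205 CPM in mutant cells. Acod1, which makes itaconate, an inhibitor of succinate dehydrogenase, was at 0 in 3 of 4 vehicle libraries of each genotype. With TNFα it had 9.53 to 13.4 CPM in wild-type and 21.6 to 28.4 CPM in mutant libraries, and the genotypes differed by 1.01 on the log2 scale (adjusted p = 1.58e-07). Markers of macrophages, cells known to express Acod1, were also higher in mutant cells (11 of 12 genes with each treatment). Among all genes, 6.19% were higher with vehicle and 5.63% with TNFα. The summed level of these markers was 89.3 to 103 CPM in wild-type and 187 to 213 CPM in mutant TNFα libraries, and 73.9 to 80.3 and 140 to 163 CPM with vehicle. Their part in the Acod1 values was not tested.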

How the data were processed

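The authors trimmed 75 bp paired end reads of stranded poly(A) libraries with Trimmomatic 0.39, mapped them with HISAT2 2.2.1 to GRCm39 and counted them on Ensembl 105 genes with htseq-count 0.11.0. The submitters' processing notes name GRCm38 and HISAT2 2.1.0 instead. They deposited raw counts per gene for each of the 16 libraries. Reads with more than 1 alignment are not counted by htseq-count by default, so genes with near-identical pseudogenes may be understated, and the strand setting is not given in the sources used here. The exons of 65 of the 99 genes overlap those of another annotated gene. The 5 entries that name no gene (8.81 to 12.1% of fragments) were left out.

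Names and gene positions were taken from GENCODE M39 (GRCm39), which lacks 665 of the 55414 identifiers, and lengths from the canonical transcripts. Counts were analyzed with edgeR 4.0.16 (TMM, robust quasi-likelihood test) in R 4.3.3, on genes with at least 10 counts over the compared libraries, with Benjamini-Hochberg adjustment over all genes tested. Each 2-group comparison used its 8 libraries and the interaction all 16. The biological coefficient of variation was 7.65 to 9.98%. The scripts were tested on simulated data. Python 3.11.15 with pandas 2.3.3 and matplotlib 3.10.9 was used for summaries and plots.

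The genes named were the core subunits, the genes with alternative forms, the largest rises and falls among called genes (up to 5 each per comparison), genes not tested, and a few regulators. Genes named otherwise were chosen after their values were seen. The genes, the lists and the tests were chosen with earlier results of these data known. Alternatives were other scalings and filters, DESeq2 1.42.0, an adjusted p under 0.1, all 16 libraries in 1 fit, the replicate number as a block, and each library left out. The shallowest library had 3439726 counts. The promoter motifs, the counts of the lists under these alternatives, and the genes of at least 10 CPM, were added after the data were seen. 1 gene that the rule names is not reported here.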

Additional observations from a re-analysis of the deposited data

Results flagged for a closer look

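Of 168 groups of 4 libraries checked, 13 had a single library far from the other 3, where chance alone flags about 1 in 20. No explanation was weighed for them.

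Wild-type vehicle replicate 4 was lowest for Atp5f1b (721 CPM against 793 to 803) and the summed levels of complex IV (1091 against 1190 to 1205), complex V (2438 against 2618 to 2627) and all respiratory chain genes (6275 against 6759 to 6792). It was also the vehicle library with Acod1 at 1.9 CPM where the other 3 were at 0. Without this library, 49 respiratory chain genes fell and 3 rose with TNFα in wild-type cells.

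In wild-type TNFα libraries, replicate 4 was highest for Ndufaf4 (14.8 against 11.7 to 12.1 CPM) and Ndufaf5 (7.47 against 6.15 to 6.35 CPM), and replicate 3 for Ndufa6 (50.4 against 41 to 41.3 CPM).

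In Notch2 mutant vehicle libraries, replicate 1 was highest for Atp5f1a (598 against 560 to 566 CPM), Ndufs8 (46.5 against 40.1 to 41.1 CPM) and the sum of complex I (1787 against 1694 to 1706 CPM), and replicate 3 was the one with any Acod1 (0.0519 CPM). In Notch2 mutant TNFα libraries, replicate 4, the shallowest, was lowest for Sdha (182 against 200 to 201 CPM).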

How the results depend on the processing

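No sum of a complex or median changed sign under these alternatives, nor did any named gene that was followed. Followed were the called genes among the core subunits, the alternative forms and the largest changes, with AA467197, Sod2 and Acod1 where called. Other named genes, and those not called, were not checked for a change of sign. The balance of calls between genotypes with vehicle turned from 4 higher and 1 lower to 1 higher and 3 lower without wild-type vehicle replicate 4. In wild-type cells, the genes called higher with TNFα were 7 at an adjusted p under 0.1, 8 with library totals and 2 with DESeq2, against 4. Between genotypes with vehicle, the genes called lower in mutant cells were 3 at an adjusted p under 0.1, 3 with a filter of 1 count and 2 with DESeq2, against 1, and 1 was higher in the fit of all 16 libraries, against 4. With TNFα, 3 were lower at an adjusted p under 0.1, 3 with library totals, 2 with a filter of 1 count and 2 in the fit of all 16 libraries, against 1, and 1 was higher with a filter of 1 count. The sum of complex II in wild-type cells changed by -11.1% with library totals (complexes I and IV by -3.4% and -0.215%, and in mutant cells by -8.51% and -5.05%), and that of complex V in mutant cells by -16.8% without Atp5f1b. The causes were not tested.

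With 1 library left out, the genes that fell with TNFα were 36 to 49 in wild-type and 39 to 51 in mutant cells, and those that rose were 2 to 5 and 1 to 4. The lowest of these came without wild-type TNFα replicate 1 (36 lower), wild-type vehicle replicate 3 or TNFα replicate 3 (2 higher), and Notch2 mutant TNFα replicate 3 (39 lower), and 4 rose without Notch2 mutant vehicle replicate 1. Between genotypes, 1 to 5 were higher and 0 to 3 lower with vehicle, and 1 to 2 were lower with TNFα. Without both wild-type replicates 4, 48 genes fell and 6 rose with TNFα in wild-type cells. Of the 9 mitochondrial DNA genes read, 5 to 7 rose in wild-type cells and 1 in mutant cells, and TCA cycle genes had 11 to 13 that fell.

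Replicate numbers did not pair the libraries consistently. The deviations of same-numbered libraries from their group means correlated at -0.266 to 0.252 over genes. Some same-numbered libraries did match best, such as replicate 1 of mutant cells with TNFα and with vehicle (0.252). With the replicate number as a block, 44 respiratory chain genes fell and 4 rose with TNFα in wild-type cells, 55 fell and 2 rose in mutant cells, 4 were higher and 1 lower between genotypes with vehicle, 1 was lower with TNFα, and 0 had an interaction. Of the mitochondrial DNA genes read, 2 then rose in wild-type and 5 in mutant cells, and in the fit of all 16 libraries 4 and 2.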
